A study of Mus musculus with 20 samples.

Results

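Kupffer cell and macrophage genes were followed in the liver of chow-fed and high-fat diet (HFD)-fed mice. The genes were chosen with earlier results of these data known, and were matched by symbol. They are 5 genes that mark resident Kupffer cells (Clec4f, Timd4, Vsig4, Marco and Cd5l), 3 general macrophage genes (Adgre1, Csf1r and Cd68) and 2 genes of lipid-associated or recruited macrophages (Trem2 and Gpnmb). All 10 were found among the 55487 gene identifiers of the count table, Adgre1 through the second symbol column, and all 10 had enough counts to be tested in every comparison. Each of the 10 was detected in all 20 libraries.

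The libraries were made from the liver of female C57BL/6J mice killed at 28 weeks of age, with 1 library per mouse. From 8 weeks of age the mice were given chow or an HFD for 10 weeks. For 10 further weeks chow-fed mice stayed on chow, and HFD-fed mice were given an HFD in which 50% of the protein came from fishmeal, salmon filet or beef. The labels give 5 chow-fed mice (1, 2, 5, 7 and 10), 5 fishmeal-fed mice (12, 13, 14, 16 and 20), 6 salmon filet-fed mice (22, 23, 25, 26, 27 and 31) and 4 beef-fed mice (32, 35, 39 and 40). All 3 HFD groups had the earlier HFD period and kept casein as the other protein source, and no HFD group without one of the test proteins was analysed here, so the HFD as such and the test proteins cannot be told apart against chow. Mouse 31 is labelled as salmon filet-fed, whereas its column in the count table carries the name of the beef group. By the column names each of the 4 groups has 5 mice, a group size that also stands in the description of the sequencing. The main salmon filet and beef fold changes and calls are therefore given as labelled and then with mouse 31 counted as beef-fed. Group values in the figures, numbers of members at an unadjusted p under 0.05 and fits without 1 mouse are given as labelled only. HFD against chow and fishmeal against chow do not depend on the group of mouse 31.

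Total counts per library ranged from 42526234 to 70266136, with a median of 56022032. The share of counts in protein coding genes was 93.2% to 95.6%, but 84.3% in beef-fed mouse 35. Fold changes of Trem2 and Marco on pooled HFD, that of Marco in beef-fed mice and the number of ratios called are also given without it. The tissue label was checked with 6 hepatocyte markers, whose summed level was 84470 to 116300 CPM per library.

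Kupffer cells are the macrophages that live inside the liver sinusoids, where they take up bacteria, lipoproteins, dead cells and old red blood cells from the blood. They depend on signalling through the receptor Csf1r and on signals from neighbouring endothelial and stellate cells, which keep up a set of genes that blood monocytes lack. When resident cells are lost, as in steatohepatitis, monocytes can enter the liver and become macrophages, some of which carry Trem2 and Gpnmb and are known as lipid-associated macrophages. These statements are background and not results. In RNA of whole liver, fewer cells of a type and less RNA per cell cannot be told apart.

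Liver macrophage genes are commonly bound by the transcription factor PU.1, so the bases just before the start sites were read for the letters GAGGAA (reverse TTCCTC), part of the PU.1 motif, and for CACGTG, the box bound by MITF and TFE factors, on both strands. RefSeq windows of 250 bases on GRCm38.p6 were matched for 8 of the 10 genes. GAGGAA or its reverse was found in 5 of the 8, against 23.3% of 32851 windows over all genes, and CACGTG in 0 of the 8, against 6.02% of all windows. The gene that rose with HFD (Trem2), the resident genes with the most negative log2 fold changes on HFD (Timd4 and Marco) and a resident gene close to its chow level (Cd5l) are shown, 5′ to 3′ on the strand of the gene, with GAGGAA or TTCCTC in capitals. The windows are chr17:48346151-48346400 (plus strand) for Trem2, chr11:46810549-46810798 (plus strand) for Timd4, chr1:120505025-120505274 (minus strand) for Marco and chr3:87357631-87357880 (plus strand) for Cd5l.
Trem2: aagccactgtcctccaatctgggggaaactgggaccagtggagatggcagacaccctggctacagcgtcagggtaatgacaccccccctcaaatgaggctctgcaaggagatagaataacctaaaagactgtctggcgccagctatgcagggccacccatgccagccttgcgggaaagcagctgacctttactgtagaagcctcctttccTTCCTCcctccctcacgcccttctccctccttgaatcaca
Timd4: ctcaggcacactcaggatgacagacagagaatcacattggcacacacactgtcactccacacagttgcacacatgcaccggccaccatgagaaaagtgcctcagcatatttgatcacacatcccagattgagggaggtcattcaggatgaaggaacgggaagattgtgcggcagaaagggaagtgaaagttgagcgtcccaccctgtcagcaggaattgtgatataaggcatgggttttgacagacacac
Marco: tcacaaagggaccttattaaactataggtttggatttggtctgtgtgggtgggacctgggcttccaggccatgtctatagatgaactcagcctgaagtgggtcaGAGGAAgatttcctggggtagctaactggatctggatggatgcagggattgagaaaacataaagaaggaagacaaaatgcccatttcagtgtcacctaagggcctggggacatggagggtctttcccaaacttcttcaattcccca
Cd5l: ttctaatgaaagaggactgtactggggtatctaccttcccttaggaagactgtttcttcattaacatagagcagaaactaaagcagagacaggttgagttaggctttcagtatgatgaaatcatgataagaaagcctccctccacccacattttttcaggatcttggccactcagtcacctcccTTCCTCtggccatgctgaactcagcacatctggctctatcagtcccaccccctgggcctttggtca
Trem2 has the letters on the opposite strand, 35 to 40 bases before its start, and Cd5l also on the opposite strand, 61 to 66 bases before. In Marco they lie 141 to 146 bases before the start on the strand of the gene. Timd4 holds neither set of letters in this window, which says nothing about PU.1 binding elsewhere. A match of letters is a description and not a binding site.

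In the GENCODE M21 annotation of GRCm38, Trem2 spans 48346401 to 48354147 of chromosome 17 (plus strand) and Adgre1 57358691 to 57483527 of the same chromosome and strand. Timd4 (46810800 to 46844332, plus strand) and Cd68 (69664213 to 69666153, minus strand) lie on chromosome 11, and Gpnmb (49036546 to 49070929, plus strand) and Clec4f (83644542 to 83656187, minus strand) on chromosome 6. Marco lies on chromosome 1 (120474538 to 120505024, minus strand), Cd5l on chromosome 3 (87357881 to 87371073, plus strand) and Vsig4 on chromosome X (96247203 to 96293438, minus strand). The members are thus spread over the genome, and each value is the count over the exons of the gene.

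The members differed widely in level. The authors' TPM scale divides by gene length and allows a rough comparison of genes, since the transcripts present may be shorter than that length. On this scale, chow-fed mice had the most mRNA of Cd5l (92.5 ± 27.6 TPM, SD, n = 5), a secreted protein that binds lipids and microbes, and of Clec4f (91.3 ± 18.04 TPM, SD, n = 5), a lectin found on Kupffer cells of rodents. Marco (62.6 ± 60.8 TPM, SD, n = 5), a scavenger receptor, and Vsig4 (57.6 ± 24.3 TPM, SD, n = 5), a complement receptor that catches bacteria, came next. They were followed by Cd68 (23.1 ± 5.43 TPM, SD, n = 5), a lysosomal protein of macrophages, Csf1r (21.3 ± 4.66 TPM, SD, n = 5), Adgre1 (16.4 ± 8.89 TPM, SD, n = 5), which encodes the antigen F4/80, and Timd4 (12.4 ± 7.48 TPM, SD, n = 5), a receptor for phosphatidylserine on dying cells. Neighbours in this order, from Cd5l to Timd4, differed by less than the larger of their SDs, except Vsig4 and Cd68.

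Gpnmb and Trem2 were far lower, at 0.217 ± 0.314 TPM (SD, n = 5) and 0.174 ± 0.121 TPM (SD, n = 5) in chow-fed mice. Gpnmb is a membrane glycoprotein of lysosome-rich macrophages, and Trem2 a lipid-sensing receptor that signals through the adaptor Tyrobp. In HFD-fed mice the order of the means was the same except that Vsig4 (45.4 ± 11.5 TPM, SD, n = 15) stood above Marco (22.9 ± 23.5 TPM, SD, n = 15) and Trem2 (0.458 ± 0.166 TPM, SD, n = 15) above Gpnmb (0.219 ± 0.111 TPM, SD, n = 15). The medians in chow-fed mice already had Vsig4 (51.5 TPM) above Marco (21.75 TPM). They also had Trem2 (0.174 TPM) above Gpnmb (0.086 TPM).

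The spread between mice also differed between members. In TMM-scaled counts per megaread (CPM), Cd68 varied least over all 20 mice (CV 18.7%, 1.96-fold from lowest to highest), followed by Clec4f (CV 21.8%, 2.14-fold) and Csf1r (CV 24.3%, 2.15-fold). Marco varied most by both measures (CV 119.8%, 35.6-fold). Gpnmb came next by CV (75.9%, 15.2-fold) and Trem2 by fold range (CV 51.3%, 16.8-fold).

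**Figure D1:**
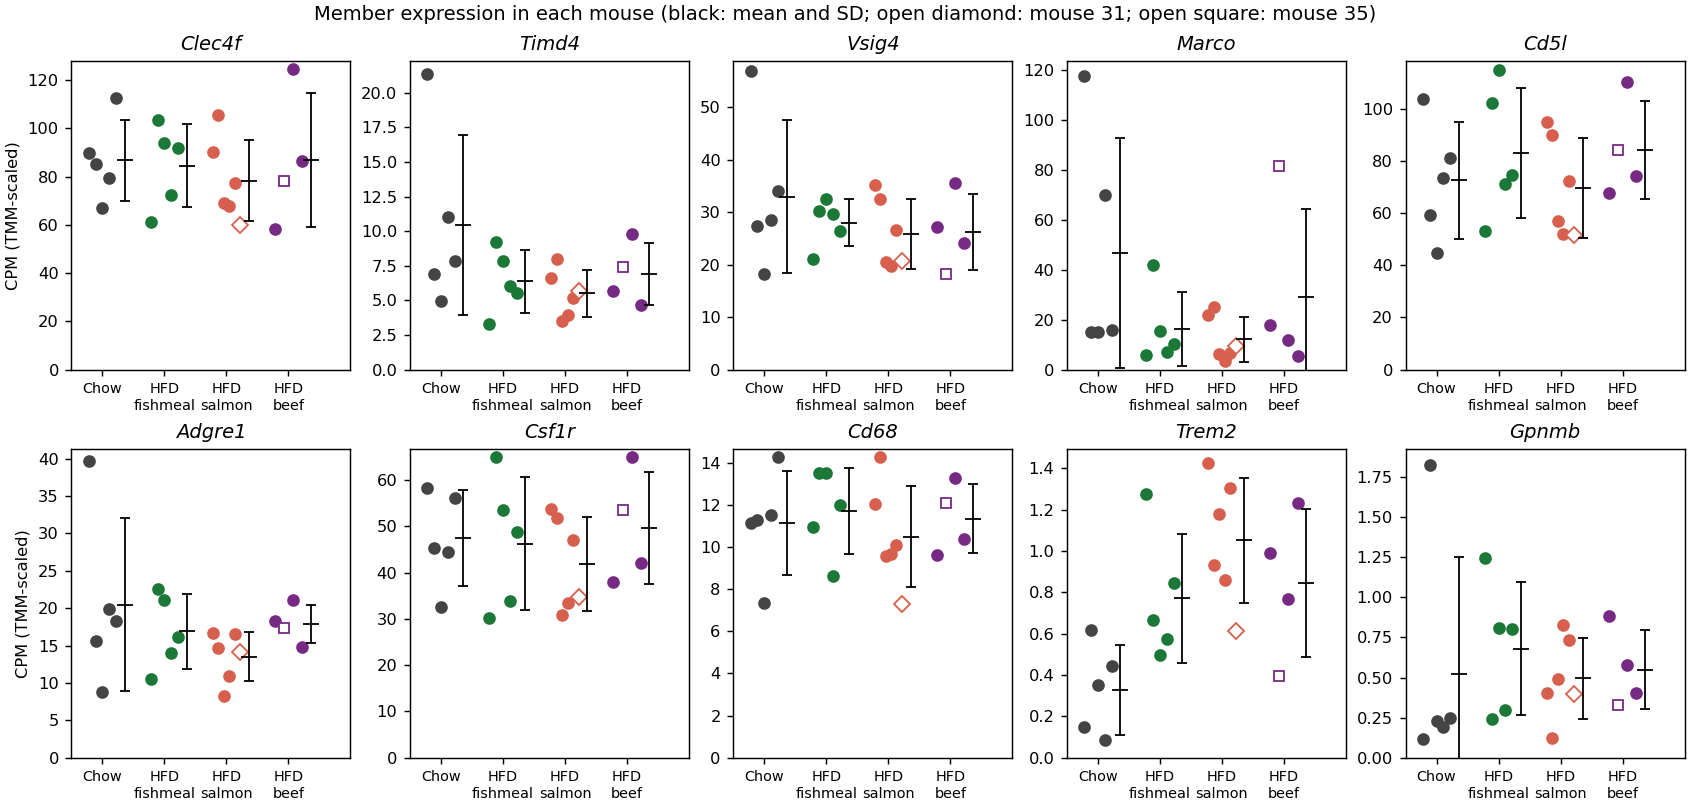
CPM after TMM scaling (linear axes from 0) of each member in each mouse by diet, with mouse 31 as labelled (open diamond) and beef-fed mouse 35 (open square); black bars are the mean and SD, and those reaching below 0 are clipped at the axis. Trem2 was above the chow mean of 0.329 CPM in all 15 HFD-fed mice, and Marco was highest in chow-fed mouse 1 at 117.4 CPM.

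The pooled HFD groups were first compared with chow. Of the 10 members, 1 was called, Trem2, and it was higher in HFD-fed mice, while 3 had an unadjusted p under 0.05. Over all 17120 genes tested, 9.75% were called (4.54% higher and 5.21% lower), and an unadjusted p under 0.05 was found for 24.4%. The number of members called was thus close to the share over all genes. Separation without overlap was seen for 0 of the 10 members and for 1.58% of all genes. A log2 fold change above 0 was seen for 3 members and one below 0 for 7, where 50.9% of all genes were above 0. Its median was -0.07 over the members and 0.005 over all genes. It was -0.31 for the 5 resident genes (from -1.38 to 0.10) and -0.07 for the 3 general genes (from -0.38 to -0.004). For the 2 lipid-associated or recruited genes it was 0.78, which is only the midpoint of Gpnmb at 0.11 and Trem2 at 1.44.

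Trem2 was measured at 0.150, 0.618, 0.351, 0.0847 and 0.442 CPM in chow-fed mice 1, 2, 5, 7 and 10. These values rest on 10, 38, 20, 4 and 25 reads. HFD-fed mice ranged from 0.394 CPM in mouse 35 (18 reads) through a median of 0.862 to 1.43 CPM in mouse 22 (78 reads). All 15 HFD-fed mice were above the chow mean, although the groups overlapped, since mice 14, 16, 31 and 35 were below chow-fed mouse 2. The mean was 0.904 ± 0.323 CPM (SD, n = 15) in HFD-fed and 0.329 ± 0.217 CPM (SD, n = 5) in chow-fed mice. Trem2 was thus 2.71-fold higher on HFD, which is 1.44 on the log2 scale (95% CI 0.72 to 2.16, SE 0.35, adjusted p = 0.0105, edgeR's quasi-likelihood test). The call of Trem2 held whichever of the 20 mice was omitted, at log2 fold changes from 1.21 to 1.80 (adjusted p from 0.00619 to 0.0443, edgeR), and the value without mouse 35 was 1.49. Trem2 could not be tested where a filter asked for 10 counts in every library, since chow-fed mouse 7 had 4.

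Gpnmb, the other gene of this class, was measured at 0.120, 1.82, 0.228, 0.191 and 0.247 CPM in chow-fed mice 1, 2, 5, 7 and 10, so that 1 mouse carried most of the chow mean. HFD-fed mice ranged from 0.123 to 1.245 CPM with a median of 0.494. The log2 fold change was 0.11 (SE 0.50, 95% CI -0.93 to 1.155, adjusted p = 0.921, edgeR), an interval wide enough to hold both lower and clearly higher levels. Without chow-fed mouse 2, Gpnmb was called higher on HFD, at 1.54 on the log2 scale (adjusted p = 0.0498, edgeR).

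Among resident Kupffer cell genes, Timd4 and Marco had the most negative log2 fold changes, without passing the adjusted threshold. Timd4 was at 21.4, 6.93, 4.99, 11.01 and 7.84 CPM in chow-fed mice 1, 2, 5, 7 and 10. It ranged from 3.27 CPM in mouse 12 through a median of 5.69 to 9.79 CPM in mouse 39 on HFD, and all 15 HFD-fed mice were below the chow mean of 10.4 ± 6.50 CPM (SD, n = 5). The groups overlapped, since chow-fed mice 2, 5 and 10 lay within the HFD range. The log2 fold change was -0.77 (SE 0.26, 95% CI -1.30 to -0.24, unadjusted p = 0.00668, adjusted p = 0.0599, edgeR). Timd4 was called by DESeq2 (adjusted p = 0.0352), and by edgeR without chow-fed mouse 5 (-0.95, adjusted p = 0.0227), fishmeal-fed mouse 13 (adjusted p = 0.0496) or beef-fed mouse 39 (adjusted p = 0.0438), whereas without chow-fed mouse 1 it moved to -0.31 (adjusted p = 0.535, edgeR).

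Marco was at 117.4, 15.1, 15.1, 69.8 and 15.7 CPM in chow-fed mice 1, 2, 5, 7 and 10, so chow-fed mice 1 and 7 stood above the other 3. HFD-fed mice ranged from 3.30 CPM in mouse 26 through a median of 10.4 to 81.4 CPM in mouse 35. The groups overlapped, and 14 of 15 HFD-fed mice were below the chow mean of 46.6 ± 46.1 CPM (SD, n = 5). The log2 fold change was -1.38 (SE 0.58, 95% CI -2.58 to -0.19, adjusted p = 0.139, edgeR). It was -1.80 and called without mouse 35 (adjusted p = 0.0223, edgeR) and -0.68 without chow-fed mouse 1 (adjusted p = 0.629, edgeR). Without fishmeal-fed mouse 13 it was -1.53 (adjusted p = 0.105, edgeR).

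The remaining resident genes were closer to chow. Vsig4 was at 26.7 ± 5.81 CPM (SD, n = 15) on HFD and 33.0 ± 14.5 CPM (SD, n = 5) on chow, with chow-fed mouse 1 highest at 56.8 CPM. Its log2 fold change was -0.31 (95% CI -0.70 to 0.07, adjusted p = 0.317, edgeR), and -0.01 without chow-fed mouse 1. Clec4f was at 82.6 ± 19.1 CPM (SD, n = 15) on HFD and 86.7 ± 16.8 CPM (SD, n = 5) on chow, a log2 fold change of -0.08 (95% CI -0.38 to 0.23, adjusted p = 0.811, edgeR). Cd5l was at 78.0 ± 20.9 CPM (SD, n = 15) on HFD and 72.5 ± 22.5 CPM (SD, n = 5) on chow, a log2 fold change of 0.10 (95% CI -0.30 to 0.49, adjusted p = 0.808, edgeR).

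Of the general macrophage genes, none passed the adjusted threshold. Cd68 had the same mean to 3 digits, 11.1 ± 2.03 CPM (SD, n = 15) on HFD and 11.1 ± 2.47 CPM (SD, n = 5) on chow, and the 95% CI of its log2 fold change ran from -0.29 to 0.28 (adjusted p = 0.993, edgeR). Csf1r was at 45.4 ± 11.7 CPM (SD, n = 15) on HFD and 47.4 ± 10.4 CPM (SD, n = 5) on chow (log2 fold change -0.07, 95% CI -0.42 to 0.29, adjusted p = 0.857, edgeR). Csf1r shares 15.1% of its annotated exonic bases with Hmgxb3 on the opposite strand, so reads of these genes could be mixed if strand was not used in counting. Adgre1 was at 39.7, 15.7, 8.85, 19.9 and 18.3 CPM in chow-fed mice 1, 2, 5, 7 and 10 and at 8.24 to 22.6 CPM (median 16.1) on HFD. Its log2 fold change was -0.38 (95% CI -0.86 to 0.10, adjusted p = 0.325, edgeR), and 0.01 without chow-fed mouse 1. Chow-fed mouse 1 was thus the highest of all 20 mice for Timd4, Vsig4, Marco and Adgre1.

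Each HFD group was then compared with the same 5 chow-fed mice, so the 3 comparisons share their controls. With fishmeal, the log2 fold change of Trem2 was 1.203 (95% CI 0.24 to 2.17, SE 0.44, adjusted p = 0.178, edgeR), where it was at 1.28, 0.665, 0.497, 0.574 and 0.846 CPM in mice 12, 13, 14, 16 and 20. None of the members (0 of 10) was called, against 3.38% of all genes. Trem2 and Marco had an unadjusted p below 0.05 (2 members, against 16.9% of all genes). For Marco the log2 fold change was -1.54 (95% CI -3.03 to -0.05, adjusted p = 0.275, edgeR), and it moved to -2.26 without fishmeal-fed mouse 13 (adjusted p = 0.112, edgeR) and to -0.84 without chow-fed mouse 1 (adjusted p = 0.594, edgeR).

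In salmon filet-fed mice, Trem2 was called higher, the only 1 of 10 members, against 4.46% of all genes called either way and 2.14% called higher. Trem2, Marco and Timd4 had an unadjusted p below 0.05 (3 members, against 21.5% of all genes). Trem2 was at 1.43, 0.931, 1.18, 0.862 and 1.30 CPM in mice 22, 23, 25, 26 and 27 and 0.616 CPM in mouse 31, which lay just under chow-fed mouse 2. The log2 fold change was 1.65 (SE 0.39, 95% CI 0.81 to 2.49, adjusted p = 0.0336, edgeR) as labelled and 1.77 (SE 0.39, 95% CI 0.91 to 2.62, adjusted p = 0.0327, edgeR, with 4.42% of all genes called and 2.22% called higher) with mouse 31 counted as beef-fed. The call was lost when chow-fed mouse 1, 5 or 7 or salmon filet-fed mouse 22, 25, 26 or 27 was left out, at log2 fold changes from 1.43 to 1.703 and adjusted p-values of 0.0506 to 0.0662 (edgeR). On the log2 scale Marco differed from chow by -1.95 (95% CI -3.34 to -0.57, adjusted p = 0.100, edgeR) and Timd4 by -0.93 (95% CI -1.64 to -0.22, adjusted p = 0.123, edgeR) as labelled, and by -1.89 and -0.94 with mouse 31 counted as beef-fed. Without chow-fed mouse 1 the difference for Marco was -1.2501 (adjusted p = 0.280, edgeR).

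In beef-fed mice, Trem2 was at 0.990, 0.394, 0.767 and 1.233 CPM in mice 32, 35, 39 and 40. The log2 fold change was 1.34 (SE 0.49, 95% CI 0.27 to 2.42, adjusted p = 0.183, edgeR) as labelled and 1.2603 (SE 0.45, 95% CI 0.28 to 2.24, adjusted p = 0.158, edgeR) with mouse 31 added. As labelled, it ran from 1.11 to 1.71 when each of the 9 mice was left out in turn, without a call (adjusted p from 0.138 to 0.3875, edgeR). Under either grouping 0 of 10 members were called, against 2.48% and 3.05% of all genes. As labelled, only Trem2 had an unadjusted p below 0.05 (1 member, against 17.8% of all genes). Marco was at 18.1, 81.4, 12.1 and 5.40 CPM in these mice, with mouse 35 far above the other 3, and its log2 fold change of -0.68 had a 95% CI from -2.50 to 1.132. For Marco it was 0.0052 without chow-fed mouse 1 (adjusted p = 0.998, edgeR), -1.97 without mouse 35 (adjusted p = 0.268, edgeR) and -0.89 with mouse 31 counted as beef-fed.

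**Figure D2:**
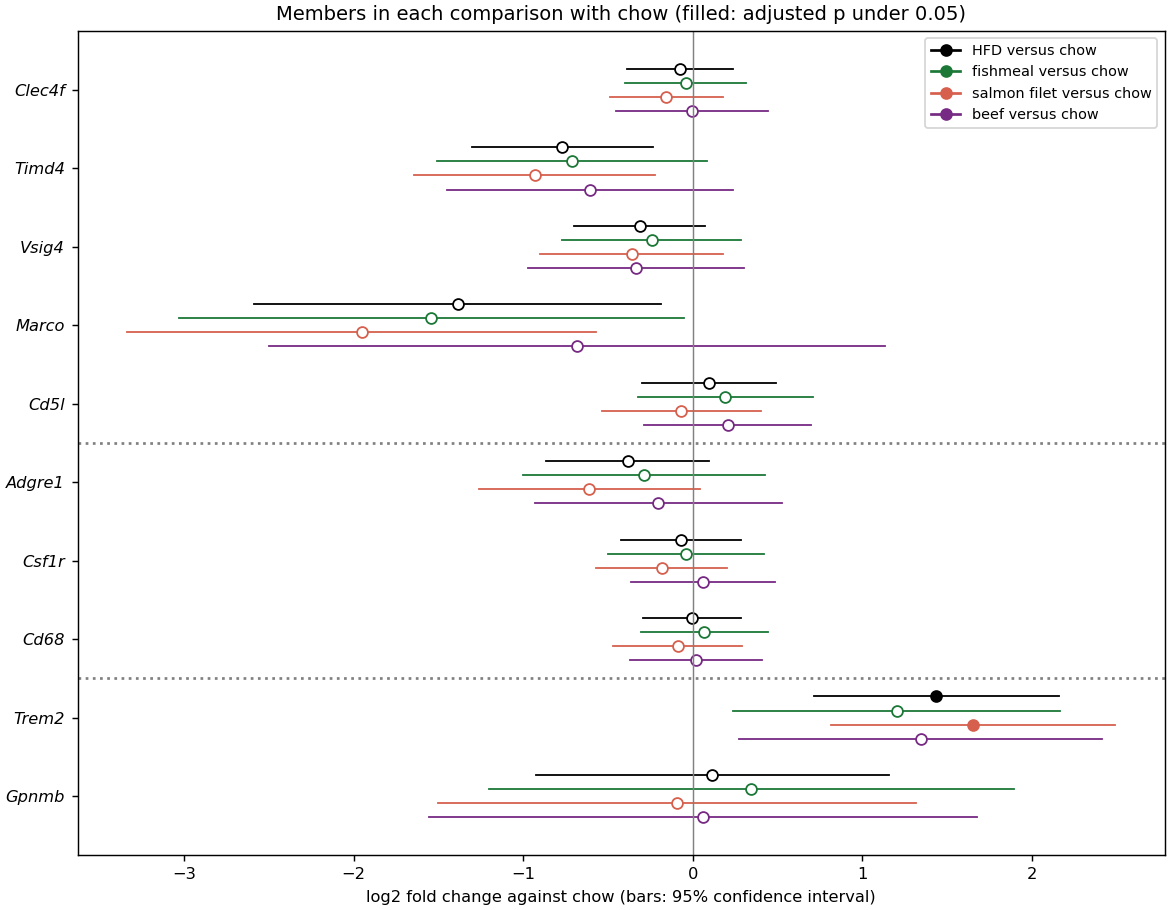
Log2 fold change against chow (points) with 95% confidence intervals (bars) for each member in pooled HFD-fed mice and in each HFD group as labelled; filled points have an adjusted p under 0.05, and dotted lines part resident, general and lipid-associated or recruited genes. Only Trem2 in pooled HFD-fed mice (1.44) and in salmon filet-fed mice (1.65) is filled.

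The protein sources were compared with each other within the HFD groups. As labelled, 0 of 10 members were called between fishmeal and salmon filet (0.157% of all genes called), between fishmeal and beef (0.00607%) and between salmon filet and beef (0%). With mouse 31 counted as beef-fed, 0 of 10 were called in each, against 0.170%, 0.0245% and 0% of all genes. As labelled, an unadjusted p below 0.05 was reached by 0 members for fishmeal against salmon filet (4.24% of all genes), 0 for fishmeal against beef (2.33%) and 1 for salmon filet against beef (3.71%). This was Adgre1. It was at 13.5 ± 3.33 CPM (SD, n = 6) with salmon filet and 17.9 ± 2.58 CPM (SD, n = 4) with beef. Its log2 fold change was -0.41 (95% CI -0.80 to -0.01, unadjusted p = 0.0454, adjusted p = 1.000, edgeR), and -0.36 (unadjusted p = 0.0830, edgeR) with mouse 31 counted as beef-fed. For Trem2 the difference between fishmeal and salmon filet was -0.43 (95% CI -1.03 to 0.16) on the log2 scale as labelled and -0.56 (95% CI -1.14 to 0.01) with mouse 31 counted as beef-fed. Between fishmeal and beef it was -0.14 (95% CI -0.93 to 0.65) as labelled and -0.06 (95% CI -0.78 to 0.67) with mouse 31 counted as beef-fed, and between salmon filet and beef 0.30 (95% CI -0.37 to 0.97) and 0.50 (95% CI -0.10 to 1.1065). These intervals of Trem2 are wide, and no likeness of the protein sources is shown by them.

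Resident genes were then set against the other macrophage genes within each mouse, since a ratio does not depend on library size. The log2 ratio of CPM was taken for each of the 5 resident over each of the 5 other genes, and HFD-fed and chow-fed mice were compared by an exact two-sided permutation test over all 15504 ways to choose 5 of 20 mice, adjusted over the 25 ratios. Adjusted p was under 0.05 for 9 ratios, 5 of which had Trem2 as the other gene. Chow-fed and HFD-fed mice overlapped for each of the 25 ratios. Since the members were chosen with results for Trem2 known, its ratios are not independent support.

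The log2 ratio of Clec4f over Trem2 was 7.02 to 9.36 (median 7.88) in chow-fed mice and 5.54 to 7.51 (median 6.52) in HFD-fed mice. The difference of the means was -1.61 (8.12 ± 0.99, SD, n = 5, against 6.51 ± 0.66, SD, n = 15; exact permutation p = 9.03e-04, adjusted p = 0.0137), with 15 of 15 HFD-fed mice below the chow mean. The differences for Vsig4, Timd4, Marco and Cd5l over Trem2 were -1.76 (adjusted p = 0.0137), -2.16 (adjusted p = 0.0172), -2.88 (adjusted p = 0.0279) and -1.41 (adjusted p = 0.0279, all exact permutation tests).

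Over Gpnmb, 0 of 5 ratios were called. Against the general macrophage genes, 4 of 15 ratios were called. Timd4 differed relative to Adgre1 by -0.38 (adjusted p = 0.0279, 14 of 15 HFD-fed mice below the chow mean), to Csf1r by -0.56 (adjusted p = 0.0279, 15 of 15) and to Cd68 by -0.64 (adjusted p = 0.0475, 15 of 15, exact permutation tests, log2 scale). Cd5l moved the other way relative to Adgre1, by 0.37 (adjusted p = 0.0475, 13 of 15 above, exact permutation test). Clec4f did not pass relative to Adgre1, Csf1r or Cd68, with differences of 0.17, -0.0084 and -0.09. Marco over Csf1r had a large difference, -1.27, with an adjusted p of 0.0833 (exact permutation test). No ratio was called when chow-fed mouse 1 or chow-fed mouse 7 was left out (smallest adjusted p = 0.0548 in each, exact permutation tests), whereas 14 were called without chow-fed mouse 2 and 12 without mouse 35.

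**Figure D3:**
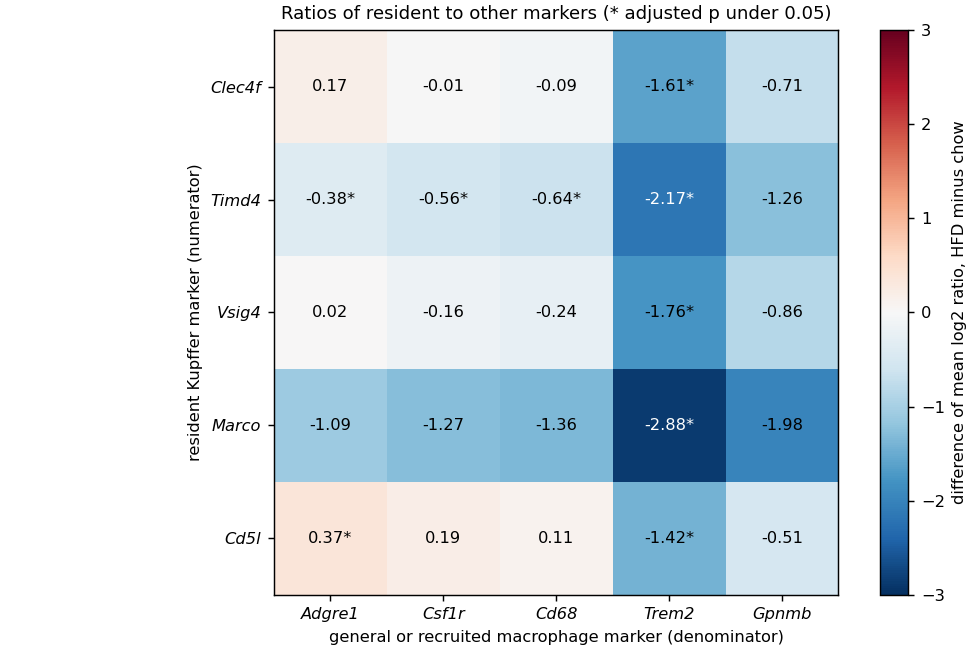
Difference of the mean log2 ratio, HFD-fed minus chow-fed mice, for each resident Kupffer cell gene (rows) over each general or recruited macrophage gene (columns), in colour and figures; stars mark an adjusted p under 0.05. The Trem2 column is negative in every row, from -1.41 to -2.88, and so is the Gpnmb column, from -0.51 to -1.98 without a star. The Timd4 and Marco rows are negative in every column, and Marco is starred over Trem2 only.

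The members were next compared with each other over the 15 HFD-fed mice, with diets pooled. Pearson's r and Spearman's rho of log2 CPM were tested by 100000 permutations and adjusted over the 45 pairs, and 21 pairs had an adjusted p under 0.05 for both. All 21 had a positive r, from 0.59 to 0.91, and r stayed between 0.56 and 0.92 when the 2 mice farthest from the median of the first gene were left out. These pairs held resident genes (8 of 10 pairs), general genes (2 of 3 pairs) and resident with general genes (11 of 15 pairs).

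The highest r was that of Cd5l and Csf1r, at 0.91 (rho 0.90, permutation p = 2e-05 for both, adjusted p = 4.5e-04). Timd4 and Csf1r had an r of 0.88 (rho 0.85, permutation p = 2e-05 and 7e-05, adjusted p = 4.5e-04 and 0.00105), and Clec4f and Csf1r of 0.87 (rho 0.81, permutation p = 8e-05 and 3.6e-04, adjusted p = 5.14e-04 and 0.00203). Of the 28 pairs of resident and general genes, 7 were not called, among them Marco with Vsig4 (r = 0.23) and with Clec4f (r = 0.38). For Marco and Vsig4, r was 0.64 without mice 26 and 35, the 2 farthest from the median of Vsig4. For Marco and Clec4f it was 0.40 without mice 23 and 39, the 2 farthest from the median of Clec4f. The share of pairs called over all genes was not computed, so the count describes the members only. No diet group held more than 6 mice, and r within a diet was not computed.

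Trem2 and Gpnmb stood outside this set. None of the 9 pairs with Trem2 and none of the 9 pairs with Gpnmb was called, and r ranged from -0.53 to 0.25. With Timd4, r was -0.53 for Trem2 (rho -0.54, permutation p = 0.0415 and 0.0421, adjusted p = 0.0718 and 0.0702) and -0.52 for Gpnmb (rho -0.56, permutation p = 0.0476 and 0.0313, adjusted p = 0.0793 and 0.0563). Trem2 and Gpnmb had an r of 0.25 with each other (rho 0.31, permutation p = 0.360 and 0.252, adjusted p = 0.426 and 0.324). In these 15 mice Trem2 rests on 18 to 80 reads and Gpnmb on 7 to 75 reads.

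**Figure D4:**
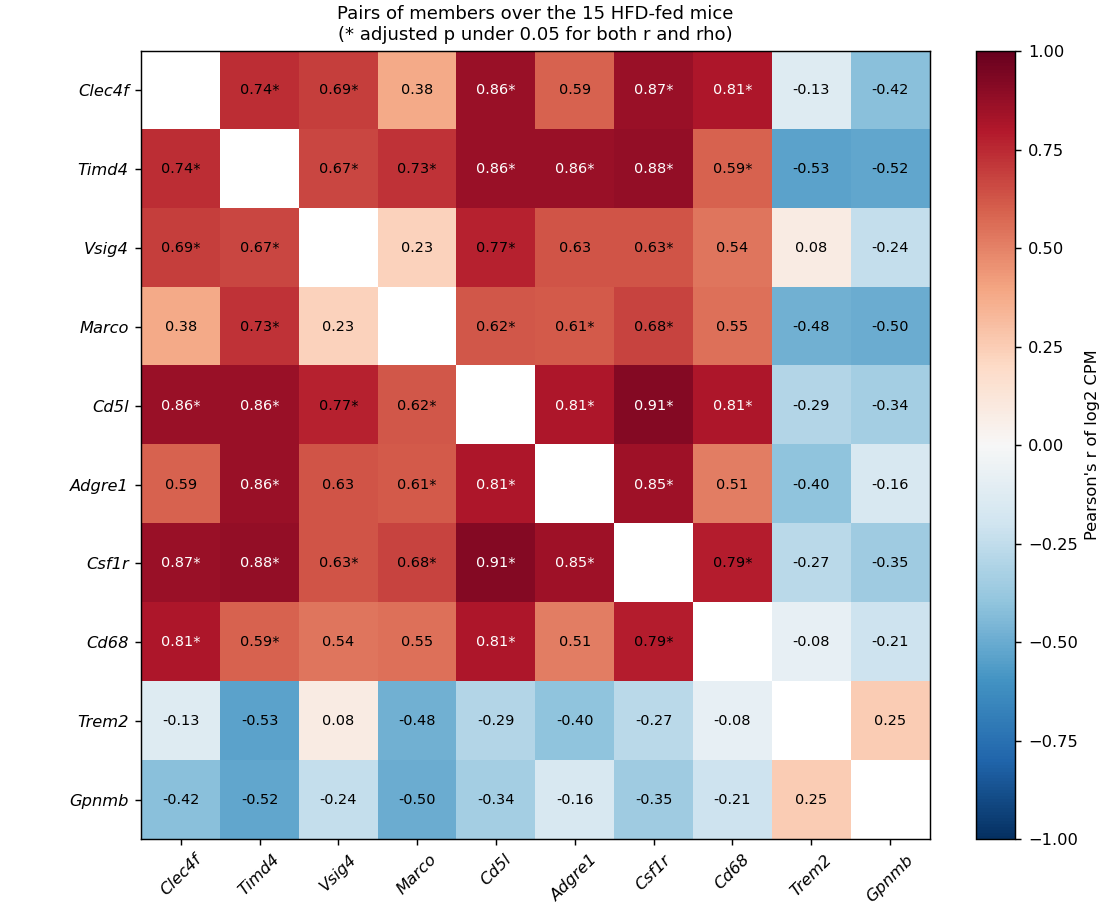
Pearson's r of log2 CPM for each pair of members over the 15 HFD-fed mice; stars mark pairs with an adjusted p under 0.05 for both Pearson's r and Spearman's rho. Pairs of the 8 resident and general genes are positive, up to 0.91, and no pair with Trem2 or Gpnmb is starred.

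The protein coding genes most like each member were sought over all 20 libraries, among genes with a mean of at least 1 CPM, after centring on the chow or HFD mean. This is a description, and the libraries share their depth and scaling. Clec4f was most like Nfam1 (r = 0.90) and Tyrobp (0.89), Cd5l like Itgal (0.92) and Nfam1 (0.92), Csf1r like Itgal (0.94) and Nfam1 (0.94), and Cd68 like Laptm5 (0.90) and Spi1 (0.89), the gene of PU.1. Vsig4 was most like Folr2 (0.95) and Cd300ld (0.94), Timd4 like Fpr1 (0.93) and Emr4 (0.93), and Adgre1 like Emr4 (0.95) and Cybb (0.94). Marco was most like Pou2f2 (0.93) and Siglece (0.92). The values for Trem2, with Pradc1 (0.82) and Rab34 (0.74), and for Gpnmb, with Ccdc80 (0.78) and Matn2 (0.76), were lower. Trem2 and Gpnmb rest on few reads per mouse (4 to 80 and 7 to 112). Their means of 0.760 and 0.559 CPM lie below the 1 CPM asked of the genes searched, so genes at their level were not compared. The part of this in the lower r was not tested.

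Other genes of the same cells were taken from lists to set the members in context. The counts of genes called in each list are to be read beside the shares over all genes, 4.54% called higher and 5.21% called lower on HFD. Of 15 other Kupffer cell genes, 0 were called higher and 1 lower on HFD (median log2 fold change -0.16). The called gene was Id3, an inhibitor of DNA binding that Kupffer cells need during development, at 10.2 ± 4.24 CPM (SD, n = 15) on HFD and 20.4 ± 4.95 CPM (SD, n = 5) on chow (-1.01 on the log2 scale, adjusted p = 0.0127, edgeR). Which liver cells the Id3 RNA came from was not tested.

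Of 15 other genes of recruited or lipid-associated macrophages, 14 had enough counts, 0 were called higher and 1 lower (median 0.05). The called gene was Cd9, a membrane tetraspanin also made by other liver cells, which fell from 28.1 ± 9.99 CPM (SD, n = 5) to 12.3 ± 2.59 CPM (SD, n = 15; log2 fold change -1.20, adjusted p = 4.5e-05, edgeR). Trem2 was thus the only gene called higher among these 2 members and 14 other genes, where 4.54% of all genes were called higher. By size of change it did not stand alone. The largest log2 fold change of the 14 other genes was above that of Trem2 in fishmeal-fed and beef-fed mice as labelled, without a call. It was below that of Trem2 in pooled HFD-fed and salmon filet-fed mice.

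The 10 Csf1r ligands and niche signals had 0 genes called higher and 1 called lower (median 0.01), where 5.21% of all genes were called lower. Id1, a target of BMP signalling, was at 1.89 ± 0.622 CPM (SD, n = 15) on HFD and 3.58 ± 0.994 CPM (SD, n = 5) on chow (log2 fold change -0.92, adjusted p = 0.00898, edgeR). Of 8 genes of TREM2 and CSF1R signalling, 0 were called (median 0.05). Apoe, the gene of an apolipoprotein that TREM2 binds and the most abundant of them, had a log2 fold change of 0.24 (95% CI -0.23 to 0.71, adjusted p = 0.567, edgeR), and Tyrobp, the TREM2 adaptor, of 0.12 (95% CI -0.20 to 0.43, adjusted p = 0.698, edgeR). Of 10 scavenger and phagocytic receptors, 1 was called higher and 0 lower (median 0.21), where 4.54% of all genes were called higher. This was Cd36, a fatty acid transporter that hepatocytes also make, at 197.7 ± 47.4 CPM (SD, n = 15) on HFD and 101.3 ± 30.4 CPM (SD, n = 5) on chow (log2 fold change 0.96, adjusted p = 0.00391, edgeR).

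**Figure D5:**
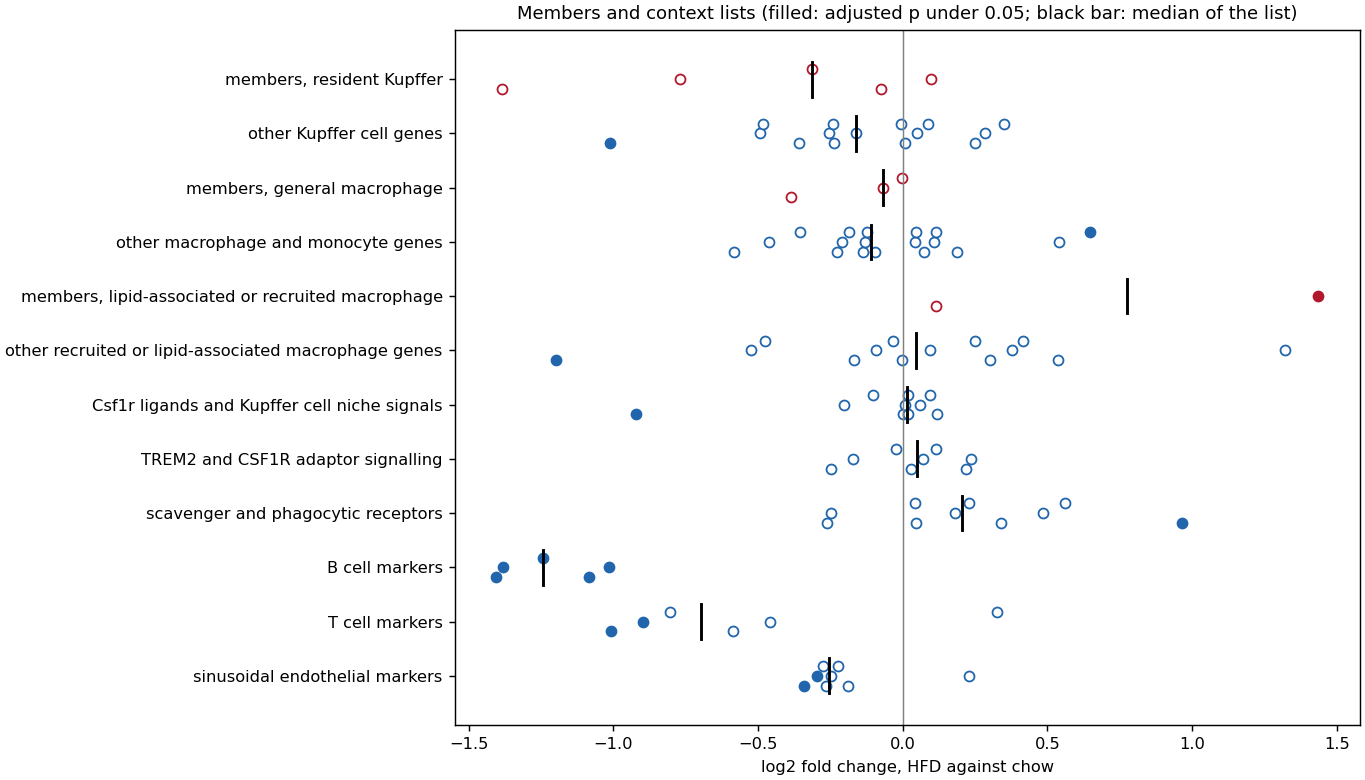
Log2 fold change, HFD against chow, of each tested member (red) and of each tested gene of 9 context lists (blue); filled points have an adjusted p under 0.05 and black bars are list medians. Trem2 at 1.44 is the filled red point, and the B cell markers lie at -1.01 to -1.40.

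Markers of other cells moved between the same groups, where 5.21% of all genes were called lower on HFD and 4.54% higher. All 5 of 5 B cell markers were called lower in HFD-fed mice, with Ms4a1 at -1.38 (adjusted p = 3.6e-04, edgeR) and Cd79b at -1.08 (adjusted p = 0.00334, edgeR) on the log2 scale. Their summed level was 5.25 to 13.1 CPM in chow-fed and 1.92 to 5.74 CPM in HFD-fed mice, and no B cell marker was at 0 in all mice. Of 6 T cell markers, Cd3d (-1.01, adjusted p = 0.0269, edgeR) and Cd4 (-0.90, adjusted p = 0.0100, edgeR) were called lower, with a summed level of 2.90 to 5.02 CPM on chow and 1.65 to 3.60 CPM on HFD. Of 8 sinusoidal endothelial markers, Clec4g (-0.29, adjusted p = 0.00758, edgeR) and Fcgr2b (-0.34, adjusted p = 0.0110, edgeR) were called lower, with a summed level of 328.5 to 388.1 CPM on chow and 257.2 to 393.8 CPM on HFD. Of 5 cholangiocyte markers, Sox9 was called lower (-0.61, adjusted p = 0.0301, edgeR; summed level 9.71 to 16.5 CPM on chow and 4.79 to 14.0 CPM on HFD). Of 5 red blood cell markers, Alas2 was called higher (0.71, adjusted p = 0.00602, edgeR; summed level 73.6 to 212.1 CPM on chow and 84.5 to 482 CPM on HFD). Of the tested hepatocyte (6), stellate cell (7), dendritic cell (6) and neutrophil (3 of 6) markers 0 were called. The most abundant of each list, Alb, Dcn, Zbtb46 and Csf3r, had log2 fold changes of -0.13, -0.21, -0.15 and -0.15. The medians of the 4 lists were -0.06, 0.16, -0.05 and -0.54. Of the 7 stellate cell markers, 6 were above 0 and only Dcn was below. The dendritic cell markers were split, with 3 above and 3 below 0. The 4 adipocyte markers had too few counts to test, with a summed level of at most 0.215 CPM. The part of these cells in the values of Timd4, Marco and Trem2 was not tested.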

How the data were processed

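Liver mRNA of 20 mice was sequenced as paired-end reads from strand-specific libraries. The authors trimmed reads with BBDuk, mapped them with HISAT2 1.2.1 and counted them per gene with featureCounts 1.4.6-p1, per the labels and methods. The strand setting is not given in the sources used here. The deposited counts were not normalised, and the deposited TPM values are counts scaled by the authors to gene length and library size. The files' build is given as a human one, and positions here are GRCm38 from GENCODE M21, which held 55141 of 55487 identifiers.

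Counts were tested with edgeR 4.0 in R 4.3 (TMM, filterByExpr with a minimum count of 10, two-sided quasi-likelihood F-test, Benjamini-Hochberg over all genes tested), and a gene was called at an adjusted p under 0.05. The log2 CPM used a prior count of 2. Alternatives were DESeq2 1.42, other scaling factors, other count filters, a fit on all 4 groups, limma 3.58 (log2 of TPM + 1, for genes averaging 0.5 TPM or more), and each mouse left out. The scripts were tested on simulated data. Libraries within a group differed by more than counting noise (chi-square per gene of 35.1 to 457). P-values measure the spread between these mice.

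The members and the lists were chosen with earlier results of these data known. Named genes are all members, from each other list up to 3 called in HFD against chow (those with the smallest p) or else the most abundant, and for each member the 2 most similar genes. Some genes that this rule names are not reported here. Tyrobp (as an adaptor) and Hmgxb3 were added after their values were seen. No transcript of another gene aligned to a member over at least 100 bases at 90% identity, apart from Hmgxb3.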

Additional observations from a re-analysis of the deposited data

Results flagged for a closer look

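In the 4 diet groups, 40 sets of values (10 members in 4 groups) were searched for a mouse far from the others of its group, and 3 were found, where chance gives about 1 in 20. Marco was 41.9 CPM in fishmeal-fed mouse 13, against 15.3 CPM in the next mouse of that group. Marco was 81.4 CPM in beef-fed mouse 35, against 18.1 CPM in the next. Gpnmb was 1.82 CPM in chow-fed mouse 2, against 0.247 CPM in the next. The log2 fold changes of Marco without mouse 13 or mouse 35, and of Gpnmb without mouse 2, are given in the results.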

How the results depend on the processing

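In HFD against chow, the number of members called (1) became 2 with DESeq2 (Timd4 and Trem2). It became 0 when each library had to hold 10 counts or more of a gene and 0 with limma on log2(TPM + 1), where 8 members were tested and Trem2 and Gpnmb were left out by the filters. It ranged from 1 to 2 when 1 mouse was left out. In salmon filet against chow, 1 became 0 when each library had to hold 10 counts or more of a gene and 0 with limma on log2(TPM + 1). In both of these Trem2 was left out by the filters and not tested, and it was called in the 6 other alternatives. The number called ranged from 0 to 1 when 1 mouse was left out. The number of ratios called (9) became 0 on log2(TPM + 1), where the pseudocount of 1 is above the TPM of Trem2 and the smallest adjusted p was 0.0699, and ranged from 0 to 14 when 1 mouse was left out. The number of correlated pairs (21) ranged from 16 to 23. No value changed sign past the threshold under any alternative run. Trem2 rests on 4 to 80 reads per mouse, which limits its precision, and the intervals of Gpnmb and Marco span more than 2.0 log2 units. No paired analysis was possible because mouse numbers are not shared between groups.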
